A study of Mus musculus with 15 samples.

Results

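The 10 genes of the CD3 complex, the T cell coreceptors and the T cell receptor (TCR) adaptors chosen here were followed in group 2 innate lymphoid cells (ILC2s) and their bone marrow precursors (ILC2p): Cd3e, Cd3d, Cd3g, Cd247, Cd4, Cd5, Cd6, Cd28, Lat and Themis. They were chosen by symbol, and all 10 were found among the 24690 entries (24089 symbols) of every expression table. RNA was sequenced from 15 mouse libraries. Lamina propria (LP) ILC2s, sorted as CD45+ lineage-negative CD127+ Sca-1+ CD25+ KLRG1+ cells, gave 4 WT and 3 Tgfbr2-/- libraries. They came from Tgfbr2 f/f ER-Cre+ mice aged 8 to 12 weeks that received either sunflower oil (WT) or 1 mg tamoxifen a day (Tgfbr2-/-) for 5 days, and cells were taken 1 day after the last dose. Bone marrow (BM) ILC2p, sorted as CD45.2+ lineage-negative CD127+ α4β7+ CD25+ cells, gave 4 WT and 4 Tgfbr2-/- libraries. These cells came from chimeras, 6 weeks after transfer of marrow into lethally irradiated CD45.1 mice. The marrow was that of Tgfbr2 f/f ER-Cre+ donors mixed with CD45.1 marrow. The donors had been treated for 5 days with oil (WT) or with 1 mg tamoxifen a day (Tgfbr2-/-). The control animals thus carried the floxed alleles and ER-Cre as well, and the promoter that drives Cre is not given in the sources used here. Each cell type was sequenced in 2 experiments. LP ILC2s and BM ILC2p came from different experiments and different kinds of mice, so cell type and batch cannot be told apart.

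In T cells, CD3ε, CD3δ, CD3γ and the ζ chain (CD247) carry the TCR signal across the membrane, CD4 brings the kinase Lck to the receptor, CD28 gives costimulation, and CD5 and CD6 are related scavenger receptors that tune the signal. LAT is the membrane scaffold that ZAP-70 phosphorylates, and THEMIS is a TCR signalling protein of thymocytes. ILC2s carry no rearranged antigen receptor on their surface and are sorted as lineage-negative cells. CD3 and CD5 are among the lineage proteins that the study's methods name for exclusion, in a list given as examples, and marrow was first depleted of lineage-positive cells with a kit.

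The libraries held between 10957021 and 35961215 reads on genes. ILC2 markers were present in all of them: the 12 genes of the list summed to between 4290 and 5600 RPKM (reads scaled to transcript length and to the mapped reads of the library) in LP libraries and between 2000 and 5490 RPKM in BM libraries. The most abundant was Id2 (985 to 1690 RPKM in LP and 886 to 2560 RPKM in BM libraries), which the study calls critical for every ILC subset. All 12 reached 1 RPKM in every LP library, and 9 to 12 of them did in a BM library. Tgfbr2, the deleted gene, did not separate the genotypes by its whole-transcript level. In LP ILC2s it measured 36.1, 57.9, 36.5 and 51.4 RPKM in WT and 49.1, 40.5 and 23.9 RPKM in Tgfbr2-/- libraries. In BM ILC2p it measured 0.146, 59.1, 25.3 and 49 RPKM in WT and 16.9, 26.3, 6.82 and 38.7 RPKM in Tgfbr2-/- libraries. The fitted log2 fold changes were -0.46 (SE 0.24) in LP ILC2s and -0.21 (SE 1.21) in BM ILC2p, and neither was called. The deposited values are given per gene and not per exon, so reads outside the deleted part are counted too and the genotype stands here as labelled. Il1rl1, a cytokine receptor on the list of ILC2 markers that was picked after its values were seen, had all its Tgfbr2-/- values below its WT values in both cell types. It measured 12.3 to 14.9 RPKM in Tgfbr2-/- and 15 to 58.9 RPKM in WT LP libraries, and 39.3 to 82.1 RPKM in Tgfbr2-/- and 197 to 301 RPKM in WT BM libraries. It is an outcome and not a check of the deletion.

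BM libraries stood apart from LP libraries in how many expressed genes were missing. Of the genes whose median reached 50 CPM (gene counts scaled to a fixed library total) across the other libraries of the same cell type, between 1.64% and 13.7% (median 6.12%) were under 1 CPM in a BM library, against 0% to 0.0275% in an LP library. The share was above 10% in 3 BM libraries: WT experiment 1 replicate 1 (13.7%) and both Tgfbr2-/- libraries of experiment 1 (11.6% and 13.3%). WT experiment 1 replicate 1, for example, held 8 reads of Tgfbr2 while its WT partner held 4007. The part of these missing genes in the results for BM ILC2p was not tested. Of the 150 values of the 10 genes, 23 were at 0, which allows up to between 0.0315 and 0.291 RPKM in those libraries (3 counts; counting error only).

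Cd3g stood out among the CD3 chains in LP ILC2s, and its start lies 1362 bases from that of Cd3d on the opposite strand of chromosome 9 (NCBIM37). Cd3g is at chr9:44777655-44788514 (minus strand), Cd3d at chr9:44789876-44795135 (plus strand) and Cd3e at chr9:44806826-44817673 (minus strand). The 250 bases before the start of the divergent neighbours Cd3g and Cd3d are shown because the pair differed so much in level in LP ILC2s. They were taken from RefSeq (GRCm38.p6), which held a promoter for 7 of the 10 genes (not Cd4, Cd6 or Cd28). Capitals mark a match to a GATA motif.
Cd3g: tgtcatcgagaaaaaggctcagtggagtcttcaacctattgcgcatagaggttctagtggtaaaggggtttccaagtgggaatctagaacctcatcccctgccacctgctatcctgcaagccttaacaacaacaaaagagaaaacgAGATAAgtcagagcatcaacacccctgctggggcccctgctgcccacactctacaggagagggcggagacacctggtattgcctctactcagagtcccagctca
Cd3d: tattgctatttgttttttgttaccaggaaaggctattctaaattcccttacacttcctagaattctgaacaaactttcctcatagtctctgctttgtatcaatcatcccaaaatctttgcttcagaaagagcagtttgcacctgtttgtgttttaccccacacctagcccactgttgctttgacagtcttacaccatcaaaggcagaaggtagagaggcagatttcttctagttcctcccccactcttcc
The GATA letters searched (the form AGATAA, the form AGATAG, the form TGATAA and the form TGATAG, on both strands) occurred once in the Cd3g window, beginning 104 bases before the start, and in no window of the other 6 genes. They were found in 26.5% of all 32851 promoters of this length. The ETS letters AGGAAG occurred in the windows of Cd3e, Cd3d, Cd247, Cd5 and Lat (29.5% of all promoters), and the E-box letters (the form CAGCTG and the form CAGGTG) in those of Cd3g, Cd3d, Cd247 and Cd5 (27.7%). The RUNX letters TGTGGT were in none of the 7 (14% of all promoters). A match describes the letters and not a bound site.

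Levels were compared between genes in RPKM, which takes transcript length into account. In LP ILC2s the medians over 7 libraries ran in the order Lat (280 RPKM), Cd3g (34.3), Cd6 (17.6), Cd28 (11.9), Cd247 (6.43), Cd3e (3.53), Themis (3.29), Cd4 (2.91), Cd3d (0.959) and Cd5 (0.0822). Lat lay above every other member in all libraries, with a median higher than that of 98.9% of entries. The range of Cd3g (27.7 to 88.4 RPKM) lay above that of Cd6 (4.21 to 25.1 RPKM). From Cd6 downwards all neighbouring ranges overlapped, so the order there does not exceed the spread, and the highest Cd4 library (27.7 RPKM) reached the lowest of Cd3g. In BM ILC2p the order over 8 libraries was Lat (206 RPKM), Cd247 (11.8), Themis (1.84), Cd3d (0.128), Cd3e (0.0798), Cd3g (0.0635), Cd4 (0.0304), Cd28 (0.0088), Cd5 (0.00785) and Cd6 (0.00557). Below Lat all neighbouring ranges overlapped there. These medians pool the genotypes, and in the 4 WT libraries alone they were 306 RPKM for Lat, 14.2 for Cd247, 7.55 for Themis, 2.59 for Cd3d, 2.47 for Cd4, 1.02 for Cd3g and 0.0573 for Cd3e, so that Cd4 and Cd3g stood before Cd3e. Cd247 overlaps Pou2f1, Gm16565 and a U6 gene in the annotation, and Themis overlaps 4930519F09Rik, and whether counting used strand is not given in the sources used here.

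**Figure D1:**
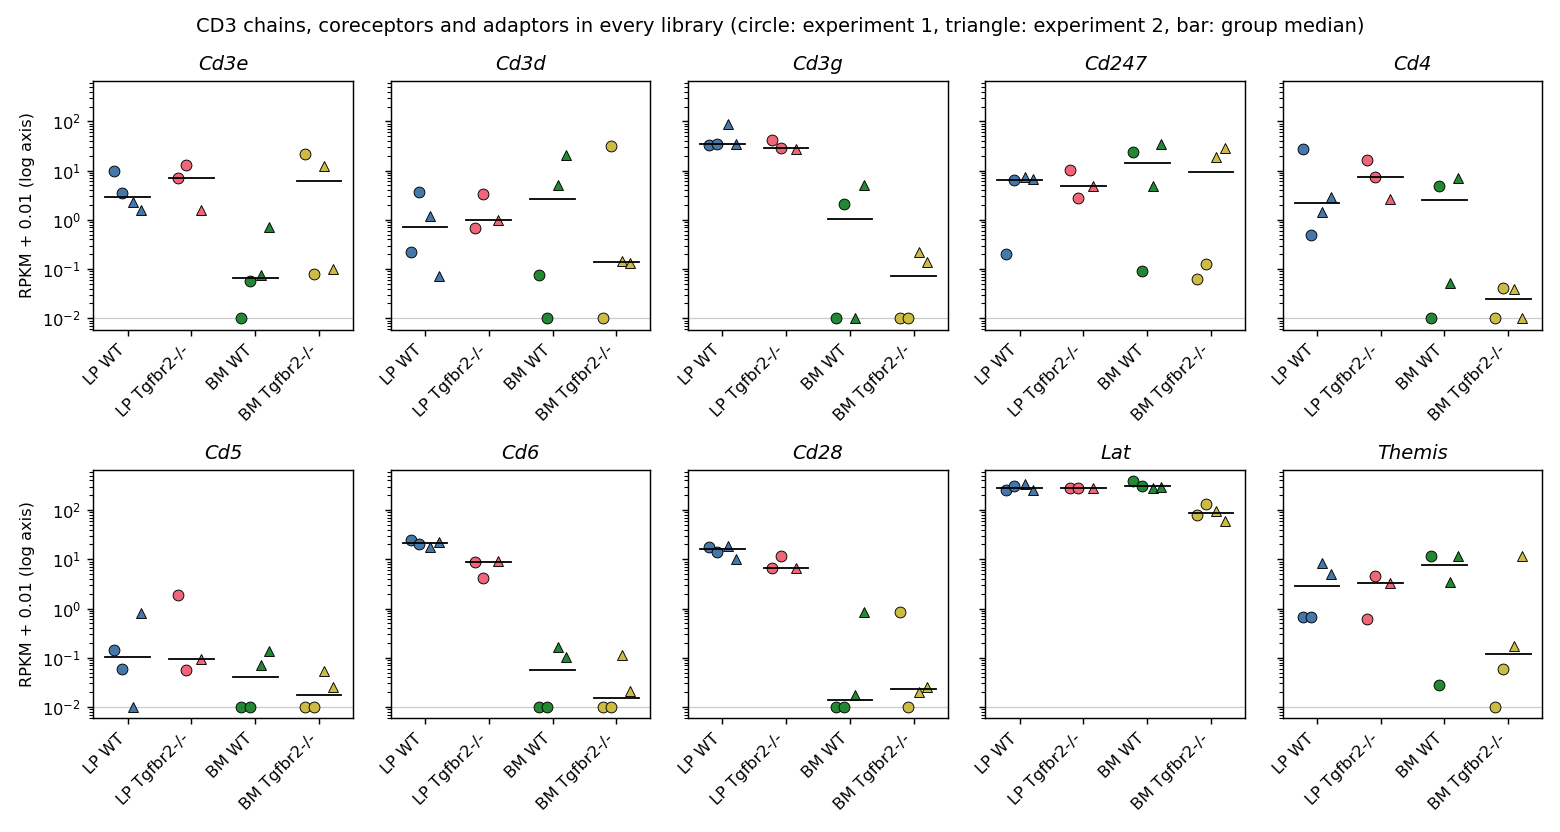
RPKM plus 0.01 on a log axis for each of the 10 genes in every library, by cell type and genotype, with the group median as a bar and values at 0 on the grey line. Cd3g, Cd6 and Cd28 form tight clusters between 4.21 and 88.4 RPKM in LP ILC2s and lie at 5.09 RPKM or below in BM ILC2p, whereas Lat is above 60 RPKM in all 15 libraries.

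The CD3 chains were not present in equal amounts in LP ILC2s. Cd3g, the γ chain, measured 32.9, 35.3, 88.4 and 34.3 RPKM in WT and 41.9, 28.4 and 27.7 RPKM in Tgfbr2-/- libraries. Cd3e, the ε chain that pairs with either γ or δ, measured 9.62, 3.53, 2.26 and 1.54 RPKM in WT and 7.17, 13.2 and 1.6 RPKM in Tgfbr2-/- libraries. Cd3d, the δ chain, measured 0.21, 3.66, 1.17 and 0.0615 RPKM in WT and 0.682, 3.38 and 0.959 RPKM in Tgfbr2-/- libraries. Cd3g was thus above Cd3e, Cd3d and Cd247 in 7 of 7 LP libraries, by 2.15 to 39.1 times over Cd3e, and all 3 of Cd3e, Cd3d and Cd3g reached 1 RPKM in 3 of them. The ζ chain Cd247 measured 0.193, 6.43, 7.44 and 6.6 RPKM in WT and 10.3, 2.78 and 4.94 RPKM in Tgfbr2-/- libraries, so that 1 WT library was far below the other 6.

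In BM ILC2p, Cd3e, Cd3d and Cd247 were high in some libraries and near 0 in others, and Cd3g reached at most 5.09 RPKM. Cd3e measured 0, 0.0484, 0.0661 and 0.708 RPKM in WT and 21.8, 0.0692, 12.4 and 0.0905 RPKM in Tgfbr2-/- libraries. Cd3d measured 0.0646, 0, 5.12 and 20.9 RPKM in WT and 0, 31.8, 0.133 and 0.122 RPKM in Tgfbr2-/- libraries. Cd247 measured 23.5, 0.0824, 4.88 and 33.9 RPKM in WT and 0.0535, 0.118, 18.8 and 28.4 RPKM in Tgfbr2-/- libraries. Cd3d, Cd3g and Cd247 were all above 5 RPKM in WT experiment 2 replicate 2, and Cd3e was high together with Cd247 in Tgfbr2-/- experiment 2 replicate 1, whereas the libraries with the highest Cd3e and the highest Cd3d had the other chains near 0. No BM library had Cd3e, Cd3d and Cd3g all at 1 RPKM or more, and Cd3g was the highest of the chains in 1 of 8. Cd3g measured 0, 2.04, 0 and 5.09 RPKM in WT and 0, 0, 0.217 and 0.127 RPKM in Tgfbr2-/- libraries.

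Markers of T cells varied from library to library beside these values. The TCR constant genes were not analysed here, and 7 of the 14 listed T cell markers had a row. In LP libraries their sum ran from 3.88 to 48.6 RPKM and the most abundant was Ccr7 (0.128 to 35.7 RPKM), a homing receptor of several lymphocytes, while Cd8a was at 0 in all 7 and Ptcra was under 1 RPKM in all 7. In BM libraries the sum was 39.6, 49, 9.04 and 32.2 RPKM in WT and 0.128, 0.234, 3.04 and 13.2 RPKM in Tgfbr2-/- libraries, with overlap. The most abundant there was the transcription factor Lef1, at 1.12 to 36.5 RPKM in WT and 0.0355 to 0.984 RPKM in Tgfbr2-/- libraries, without overlap, and Cd40lg was at 0 in all 8. Cd8a, the CD8 α chain, measured 7.25 and 9.97 RPKM in the 2 WT BM libraries of experiment 2, where Cd3d was also high, and at most 0.129 RPKM in the other 6. Cd8b1, the CD8 β chain, measured 11.8 RPKM in WT LP experiment 1 replicate 1, the library with the highest Cd4, and at most 0.333 RPKM in the other 6 LP libraries. In BM libraries it measured 13 RPKM in WT experiment 2 replicate 2, 12.5 RPKM in Tgfbr2-/- experiment 2 replicate 2, 3.03 RPKM in WT experiment 1 replicate 1 and at most 0.188 RPKM in the other 5. Cd5, a T cell surface protein and a named target of the exclusion gate, measured 0 to 1.91 RPKM over the 7 LP libraries (median 0.0822) and 0 to 0.13 RPKM over the 8 BM libraries. Cd2, another surface protein of T and NK cells, measured 0.0317 to 4.44 RPKM in LP libraries. In BM libraries it measured 13.9 RPKM in WT experiment 2 replicate 2, 21.1 RPKM in Tgfbr2-/- experiment 2 replicate 2 and at most 1.64 RPKM in the other 6. The part of T cells in the CD3 values was not tested.

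Over the 7 LP libraries, the 5 genes whose log2 CPM followed Cd3e most closely were Gba2, Exosc6, Vapb, 2310047M10Rik and Lpcat4, with Pearson r from 0.979 to 0.993 among 9983 genes. None of them belongs to the CD3 complex, and Cd3g ranked 5717th (r = -0.114) and Cd4 1125th (r = 0.686). Over the 8 BM libraries the closest were Igj, D130017N08Rik, Insig1, Gtf3c4 and Pagr1a (r from 0.939 to 0.990 among 8936 genes), although Cd3e did not pass the filter on low counts there. The libraries of each cell type come from 2 experiments and differ in depth, and with so few points such correlations are a description.

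Deletion of Tgfbr2 in LP ILC2s went with lower values of Cd6 and Cd28, but no gene passed the edgeR threshold (adjusted p under 0.1 and fold over 1.5). Cd6 measured 25.1, 20.4, 17.6 and 22.4 RPKM in WT and 8.83, 4.21 and 9.29 RPKM in Tgfbr2-/- libraries. The ranges did not overlap, with the highest Tgfbr2-/- library well below the lowest WT library. Its log2 fold change was -1.61 (SE 0.38), rank 38 of 11981 genes by p, with an adjusted p of 0.877 by the quasi-likelihood test of edgeR. DESeq2 gave -1.62 with an adjusted p of 0.0182. The exact two-sided permutation test of the genotype within experiments gave p = 0.0556 over 18 arrangements, the smallest it can give. The difference was -1.91 in experiment 1 alone and -1.10 in experiment 2 alone, which held 1 Tgfbr2-/- LP library.

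Cd28, the costimulatory receptor, measured 18.1, 14.2, 18.8 and 10 RPKM in WT and 6.69, 11.9 and 6.75 RPKM in Tgfbr2-/- libraries. Within each experiment the Tgfbr2-/- libraries (only 1 in experiment 2) lay below the WT libraries. Over both experiments, however, 1 Tgfbr2-/- library overlapped the WT range. Its log2 fold change was -1.0 (SE 0.38, edgeR adjusted p = 0.898), and the permutation test gave p = 0.111. Cd6 and Cd28 were the only members whose groups did not overlap within experiments, both lower, against 5.82% of all tested genes that were lower in this way. Over all 7 libraries, 2.52% of tested genes were lower without overlap, and Cd6 was the member among them. Markers of ILC1 and NK cells moved with the genotype beside these values, since 4 of the 9 on the list had higher RPKM in every Tgfbr2-/- than in any WT library. On CPM with TMM scaling, where 2.97% of all tested genes were higher in this way, Ncr1 overlapped and 3 of the 9 did not. The surface receptor Klrb1c (NK1.1) measured 0.905 to 3.22 RPKM in WT and 6.22 to 11.6 RPKM in Tgfbr2-/- libraries, and the receptor Klrk1 (NKG2D) 2.72 to 12.1 and 15.9 to 31.9 RPKM. The receptor Ncr1 (NKp46) measured 5.06 to 23.4 and 25.5 to 71.2 RPKM, and the granzyme Gzmb 0.0459 to 10.3 and 14.9 to 41.1 RPKM. The summed list overlapped, at 237 to 456 RPKM in WT and 314 to 1190 RPKM in Tgfbr2-/- libraries, its most abundant gene was Gzma, and Eomes, a defining factor of NK cells, was at 0 in all 7. The part of such cells in the values of Cd6 and Cd28 was not tested.

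The other members of LP ILC2s did not differ by more than their spread. Lat, the adaptor, measured 252, 312, 341 and 258 RPKM in WT and 280, 280 and 281 RPKM in Tgfbr2-/- libraries, which the fit gave as -0.13 (SE 0.16) on the log2 scale. Cd3g differed by -0.50 (SE 0.46), Cd3e by 0.20 (SE 0.85), Cd3d by 0.26 (SE 1.44) and Cd247 by 0.36 (SE 1.19) on the log2 scale. Cd4, which helper T cells and lymphoid tissue inducer cells carry, measured 27.7, 0.47, 1.41 and 2.91 RPKM in WT and 16.4, 7.41 and 2.66 RPKM in Tgfbr2-/- libraries, so single libraries decided its level. Its fold change was -0.15 (SE 1.04) and turned to 2.42 without the WT library of 27.7 RPKM. Themis measured 0.666, 0.668, 8.41 and 4.91 RPKM in WT and 0.592, 4.48 and 3.29 RPKM in Tgfbr2-/- libraries (log2 fold change 0.85, SE 1.10). Of the 10 members, 9 passed the filter on low counts (not Cd5), 0 were called by edgeR, as were 0.0% of all 11981 genes, while DESeq2 called Cd6 and 338 genes in all (2.82%). By edgeR 2 members had an unadjusted p under 0.05 against 4.65% of all genes. Their median log2 fold change was -0.13, against -0.01 for all genes.

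Of the 30 other genes of the TCR pathway, 29 were tested in LP ILC2s and 0 were called by edgeR, with 5 at an unadjusted p under 0.05 (4.65% of all genes) and 1 called lower by DESeq2 (338 of all genes in either direction). The kinase Zap70 averaged 239 ± 35.3 RPKM (SD, n = 4) in WT and 242 ± 20.8 RPKM (SD, n = 3) in Tgfbr2-/- libraries. The kinase Lck averaged 66.1 ± 6.85 and 80.2 ± 8.94 RPKM and the adaptor Lcp2 (SLP-76) 157 ± 36.8 and 138 ± 31.5 RPKM in the same groups. Zap70 and Lcp2, neither of them under 120 RPKM in any LP library, were thus above Cd3g, whose highest library was at 88.4 RPKM. The kinase Fyn was lower, at 13.8 ± 8.41 and 12.6 ± 2.5 RPKM. The adaptor Skap1 measured 198 to 247 RPKM in WT and 145 to 189 RPKM in Tgfbr2-/- libraries, which did not overlap (log2 fold change -0.46, SE 0.17), and Dok2, an inhibitory adaptor, differed by -0.29 (SE 0.21). Fyb, the adhesion adaptor ADAP, averaged 97 ± 5.85 and 63.5 ± 11.7 RPKM, also without overlap (-0.68, SE 0.17, edgeR adjusted p = 0.898). The surface protein Cd2 differed by 1.81 (SE 1.82).

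The 2 LP experiments differed from each other in more genes than the genotypes did: 117 genes (0.977%) were called between experiments, 0 of them members, although between 0 and 19 genes were called when any 1 library was left out. The genotype effect itself did not pass the threshold of difference between the experiments for any gene by edgeR (0.0% of genes called in either cell type, with 328 genes in LP ILC2s and 687 in BM ILC2p at an unadjusted p under 0.05), and no other tool was run on it. Cd3e was lower in experiment 2 by -2.34 (SE 0.90, adjusted p = 0.319) and Cd4 by -2.70 (SE 1.14, adjusted p = 0.358) on the log2 scale by edgeR. Epithelial markers moved with the experiment too, with a sum of 3.13 to 19.8 RPKM in the 4 libraries of experiment 1 and 247, 426 and 1000 RPKM in those of experiment 2. ILC3 markers moved the other way, with sums of 405, 191, 213 and 247 RPKM in experiment 1 and 35, 17.9 and 131 RPKM in experiment 2. The part of these cells in the values of the members was not tested. Cd6 (-0.08, SE 0.37) and Lat (-0.13, SE 0.16) differed little between experiments.

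**Figure D2:**
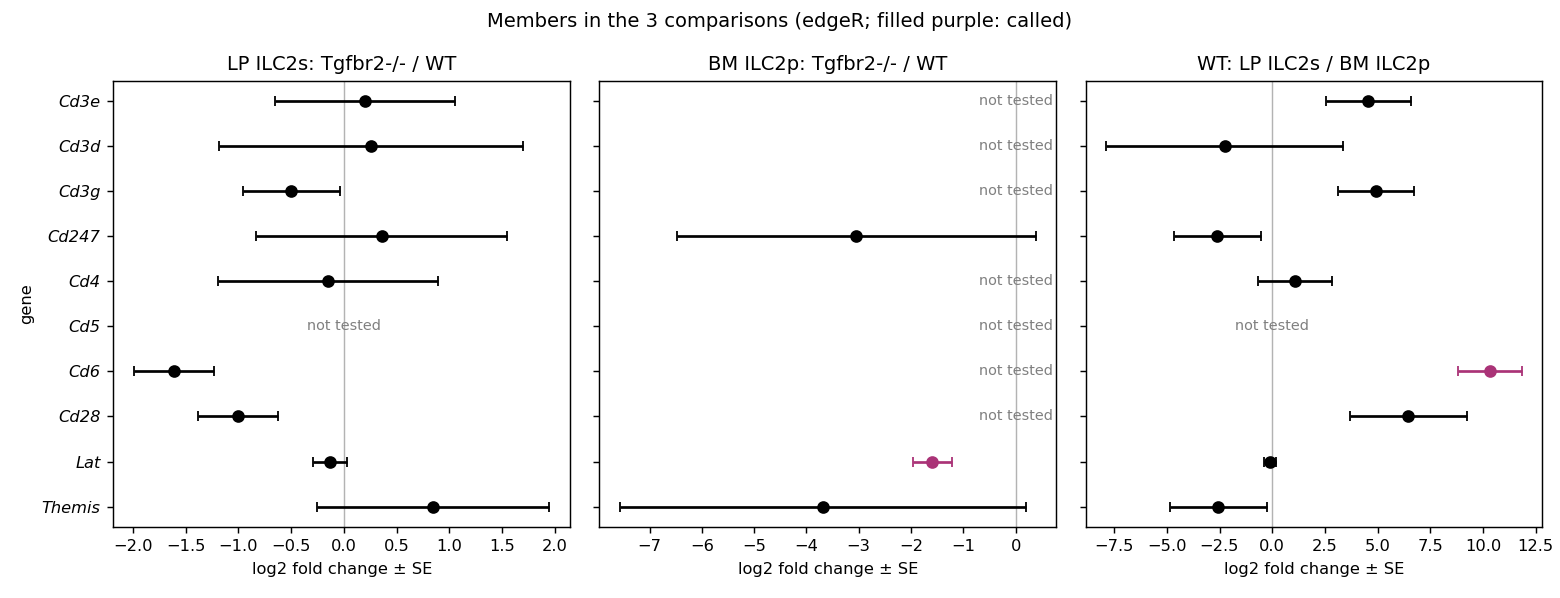
Log2 fold change with its standard error for each member by edgeR in LP ILC2s (Tgfbr2-/- over WT), BM ILC2p (Tgfbr2-/- over WT) and WT libraries (LP over BM), with a different x axis in each panel and calls in purple. Lat in BM ILC2p (-1.59) and Cd6 between cell types (10.32) are the called members, and genes removed by the filter on low counts are marked as not tested. Between cell types, Cd6 was tested through the LP libraries, where it was high.

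In BM ILC2p, Lat fell in Tgfbr2-/- libraries. It measured 388, 312, 278 and 300 RPKM in WT and 81.1, 134, 96.1 and 60.5 RPKM in Tgfbr2-/- libraries, or 319 ± 47.8 and 92.9 ± 31 RPKM (SD, n = 4 each). Every Tgfbr2-/- library was below every WT library, as for 4.07% of all tested genes in this direction. The log2 fold change was -1.59 (SE 0.37) with an adjusted p of 0.0716 by edgeR and -1.47 with an adjusted p of 0.0129 by DESeq2, which called 13.3% of all genes. The exact two-sided permutation test gave p = 0.0556 over 36 arrangements, the smallest it can give. The difference was -1.54 in experiment 1 alone and -1.65 in experiment 2 alone. Leaving out 7 of the 8 libraries, one at a time, ended the call (edgeR adjusted p from 0.144 without WT experiment 1 replicate 2 to 0.234 without WT experiment 2 replicate 1), and it was kept only without Tgfbr2-/- experiment 1 replicate 2 (0.0927). The fold change stayed between -1.76 and -1.46.

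The cells of these libraries differed in more than Lat. Myeloid markers summed to 455, 1190, 991 and 1270 RPKM in WT and to 107000, 94900, 105000 and 89100 RPKM in Tgfbr2-/- libraries, with 8 of the 9 listed markers measured (not Ly6g). The most abundant was S100a8, a granule protein of neutrophils, at 145 to 477 RPKM in WT and 55000 to 68700 RPKM in Tgfbr2-/- libraries. Lyz2, Mpo and Elane were also higher in every Tgfbr2-/- library than in any WT library, and none of the 8 was under 1 RPKM in all libraries. CD11b and Gr-1 are among the lineage proteins named for exclusion. The 12 ILC2 markers summed to 4770 to 5490 RPKM in WT and to 2000 to 2370 RPKM in Tgfbr2-/- libraries. The 10 of them whose mean over the 8 BM libraries reached 10 RPKM (not Il5 and Il13) differed by -1.55 in mean log2(RPKM + 1) (exact two-sided permutation p = 0.0556). Areg reached that mean through the WT libraries (31.7 RPKM on average, against 2.62 RPKM in Tgfbr2-/- libraries). This choice thus depends on the change it measures, and the difference is a description. Relative to the mean of these 10 markers, log2(RPKM + 1) of Lat was 0.43 ± 0.32 in WT and 0.16 ± 0.49 in Tgfbr2-/- libraries (SD, n = 4 each). The difference was -0.27 (exact two-sided permutation p = 0.222), and the ranges of 0.12 to 0.88 and -0.42 to 0.77 overlapped. Relative to the 8 markers with at least 10 RPKM in every BM library, the difference of log2 RPKM was -0.57 (exact two-sided permutation p = 0.111). That choice leaves out Rora and Areg, which were below 10 RPKM in some Tgfbr2-/- libraries and in no WT library, so it depends on the change it is set against. Both sets also hold Il1rl1, an outcome as given above. The ratios to either set, here and below, are therefore a description. In such bulk samples, fewer cells of a type and less RNA per cell cannot be told apart, and the part of myeloid RNA in the lower share of Lat was not tested. The T cell marker Lef1, given above, was lower in the same libraries, and the part of T cells was not tested either.

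**Figure D3:**
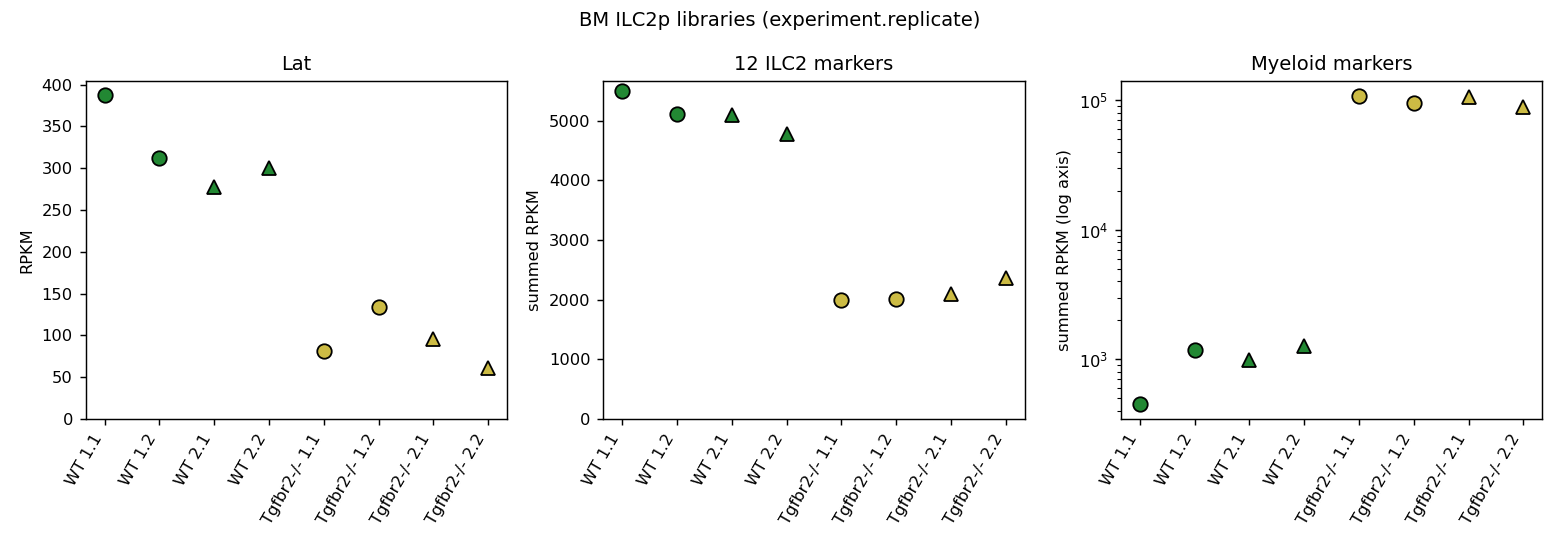
Lat (RPKM), the sum of the 12 ILC2 markers (RPKM) and the summed myeloid markers (RPKM, log axis) in the 8 BM ILC2p libraries, with circles for experiment 1 and triangles for experiment 2. Lat is between 278 and 388 RPKM in the WT libraries and between 60.5 and 134 RPKM in the Tgfbr2-/- libraries, the ILC2 markers are lower there (2000 to 2370 against 4770 to 5490 RPKM), and the myeloid markers are higher there.

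Lat was 1 of 3 members with enough reads to be tested in BM ILC2p, and the only one called, against 3.47% of all 9242 genes called and 0.866% called lower. Cd247 and Themis had log2 fold changes of -3.05 (SE 3.43) and -3.68 (SE 3.88), and neither held its direction: without WT experiment 1 replicate 1, Cd247 was at 0.54 and Themis at 0.28. Themis measured 11.7, 0.0175, 3.52 and 11.6 RPKM in WT and 0, 0.0499, 0.167 and 11.4 RPKM in Tgfbr2-/- libraries, so the highest libraries of both genotypes were alike. Cd4 measured 0, 4.9, 0.0409 and 6.94 RPKM in WT and at most 0.0321 RPKM in Tgfbr2-/- libraries. The 7 remaining members (Cd3e, Cd3d, Cd3g, Cd4, Cd5, Cd6 and Cd28) did not pass the filter.

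Of the 30 pathway genes, 25 were tested in BM ILC2p and 0 were called by edgeR (7 at an unadjusted p under 0.05, against 9.71% of all genes), while DESeq2 called 5 lower and 1 higher (1229 of all genes). Skap1 averaged 206 ± 39.8 RPKM in WT and 80.1 ± 30.7 RPKM in Tgfbr2-/- libraries (SD, n = 4 each), without overlap (-1.17, SE 0.40, edgeR adjusted p = 0.293). Relative to the 10 ILC2 markers the difference of Skap1 was 0.13 (exact two-sided permutation p = 0.833). The same measure was 0.74 for Lcp2 (exact two-sided permutation p = 0.278) and 1.61 for Ptprc (CD45), a phosphatase of all leukocytes, with the Tgfbr2-/- libraries above the WT libraries without overlap (exact two-sided permutation p = 0.0556). Relative to the 8 markers the sign of Skap1 turned, to -0.18 (exact two-sided permutation p = 0.667). The difference was 0.43 for Lcp2 (exact two-sided permutation p = 0.722) and 1.32 for Ptprc (exact two-sided permutation p = 0.0556) relative to those 8. Lck measured 91.1, 20.2, 53.9 and 34.6 RPKM in WT and 0.308, 0.202, 5.74 and 37.2 RPKM in Tgfbr2-/- libraries (-4.14, SE 2.28), and 1 Tgfbr2-/- library was within the WT range. Zap70 measured 0.489, 74.3, 23.1 and 68.1 RPKM in WT and 0.201, 0.472, 13.2 and 22.8 RPKM in Tgfbr2-/- libraries (-3.77, SE 2.15), also with overlap. Lcp2 (-0.30, SE 0.57) and Fyn (-2.02, SE 1.96) were not called. Dok2 had a log2 fold change of -1.09 (SE 0.47). It differed by 0.07 relative to the 10 ILC2 markers (exact two-sided permutation p = 0.944) and by -0.23 relative to the 8 (exact two-sided permutation p = 0.778). Cd2 did not pass the filter.

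The question whether the genotype difference itself differed between the cell types was put to 1 fit over all 15 libraries. For Lat the LP difference minus the BM difference was 1.46 on the log2 scale (SE 0.40, edgeR adjusted p = 0.141), where the median of all genes was 0.31 and 0.992% of 12806 genes were called. It was not called, although scaling by library size alone (1.75, adjusted p = 0.0714) or by the upper quartile (1.79, adjusted p = 0.06) called it, as did leaving out Tgfbr2-/- BM experiment 1 replicate 2 (adjusted p = 0.0853) or experiment 2 replicate 1 (adjusted p = 0.0966). Of the 9 members tested, 0 were called. The 6 of them that had not passed the filter in BM ILC2p entered this fit through other libraries, and their values are not given. Except for Cd3d, at least 1 BM group was near 0 (Cd4, for example, held 3 reads in the 4 Tgfbr2-/- libraries and Cd3e 38 reads in the 4 WT libraries). Cd3d held 1144 reads in WT and 435 in Tgfbr2-/- BM libraries, but reached 10 reads in only 3 of the 8. Txk, a Tec family kinase expressed in T and NK cells, was called among the pathway genes, at 5.35 (SE 0.92, adjusted p = 0.0173). It measured 17.3, 16.4, 50.4 and 41.2 RPKM in WT and 35.1, 52.2 and 59.5 RPKM in Tgfbr2-/- LP libraries. In BM libraries it measured 11.3, 24.8, 31.9 and 28.6 RPKM in WT and 0.948, 0.544, 1.4 and 0.771 RPKM in Tgfbr2-/- libraries. The values were thus higher in the Tgfbr2-/- libraries within each LP experiment (only 1 such library in experiment 2) and lower in all 4 of BM ILC2p. The call was lost without Tgfbr2-/- LP experiment 1 replicate 2 (5.07, adjusted p = 0.113) or experiment 2 replicate 1 (5.72, adjusted p = 0.187). The NK cell receptors Klrb1c, Klrk1 and Ncr1 were also higher in the Tgfbr2-/- LP libraries, as given above. In BM libraries, where Txk was lower, the sum of ILC1 and NK cell markers was higher too. It was 0.219 to 49.1 RPKM in WT and 70.6 to 244 RPKM in Tgfbr2-/- BM libraries. The part of such cells in the values of Txk was not tested.

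Between the cell types, Cd6 was higher in WT LP ILC2s and was the called member. It measured 17.6 to 25.1 RPKM in the 4 WT LP libraries and 0, 0, 0.152 and 0.0923 RPKM in the 4 WT BM libraries, which held 23 reads of Cd6 in all. The groups were far apart, and the 4 Tgfbr2-/- BM libraries (0 to 0.106 RPKM) were as low as the WT ones. The log2 fold change was 10.32 (SE 1.52, edgeR adjusted p = 0.00775), and it was 8.43 (adjusted p = 0.0229) from the WT libraries alone. Cd6 had not passed the filter within BM ILC2p and was tested here through the LP libraries, where it was high. Its call and p-values are therefore not read as support, and the levels are given as a description. No other member was called by edgeR. Of all 12806 genes 2.91% were called and 2.11% called higher, and for the same reason the call of Cd6 is not read against these shares. The size of so large a fold rests on few reads in BM ILC2p: on log2(RPKM + 1), which understates low genes, it was 4.39 by limma.

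Cd3g, Cd3e and Cd28 were also higher in every WT LP library than in any WT BM library, as were 7.05% of all tested genes. Like Cd6, they had not passed the filter within BM ILC2p and were tested here through the LP libraries, where they were high, so their number is not read against that share. Cd3g averaged 47.7 ± 27.1 RPKM in WT LP and 1.78 ± 2.4 RPKM in WT BM libraries (log2 fold change 4.93, SE 1.81, edgeR adjusted p = 0.197). Cd28 averaged 15.3 ± 4.02 and 0.208 ± 0.411 RPKM (6.46, SE 2.77, adjusted p = 0.288), and Cd3e 4.24 ± 3.68 and 0.206 ± 0.336 RPKM (4.57, SE 2.01, adjusted p = 0.305; SD, n = 4 each). None of the 3 passed the edgeR threshold, while DESeq2 called all of them (adjusted p 0.00307 for Cd3g, 0.0017 for Cd28 and 0.0257 for Cd3e). Since they were tested through the LP libraries, these calls are not read as support. They are also not read against the 13.4% of all genes that DESeq2 called. The Tgfbr2-/- BM libraries with Cd3e at 21.8 and 12.4 RPKM were above 7 and 6 of the 7 LP libraries, so low Cd3e was not a property of all BM libraries.

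Lat did not differ between the cell types in WT libraries, at 291 ± 42.9 RPKM in LP ILC2s and 319 ± 47.8 RPKM in BM ILC2p (log2 fold change -0.10, SE 0.27). Cd247 (-2.60, SE 2.06), Themis (-2.55, SE 2.32), Cd3d (-2.26, SE 5.61) and Cd4 (1.09, SE 1.74) were not called. Cd5 did not pass the filter.

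Of the 30 pathway genes, 1 was called between the cell types by edgeR, against 2.91% of all genes. DESeq2 called 2 higher and 1 lower, against 13.4% of all genes in either direction. Fyb averaged 97 ± 5.85 RPKM in WT LP and 44.8 ± 14.1 RPKM in WT BM libraries (SD, n = 4 each), a log2 fold change of 1.21 (SE 0.26, edgeR adjusted p = 0.035). Its call was lost with no filter on low counts and without WT LP experiment 1 replicate 2, Tgfbr2-/- LP experiment 2 replicate 1 or WT BM experiment 2 replicate 1, where 0 pathway genes were called. Zap70 (239 against 41.5 RPKM) and Lcp2 (157 against 95.7 RPKM) were higher in every WT LP library too, but with log2 fold changes of 2.11 (SE 1.26) and 0.75 (SE 0.44) they were not called. Lck (-0.42, SE 1.30), Fyn (-0.54, SE 1.28) and Cd2 (-2.01, SE 2.28) overlapped between the cell types. Dok2 measured 148 to 239 RPKM in WT LP and 356 to 442 RPKM in WT BM libraries, lower in LP ILC2s without overlap, but it was not called (-0.89, SE 0.39), and neither was Skap1 (0.12, SE 0.31).

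**Figure D4:**
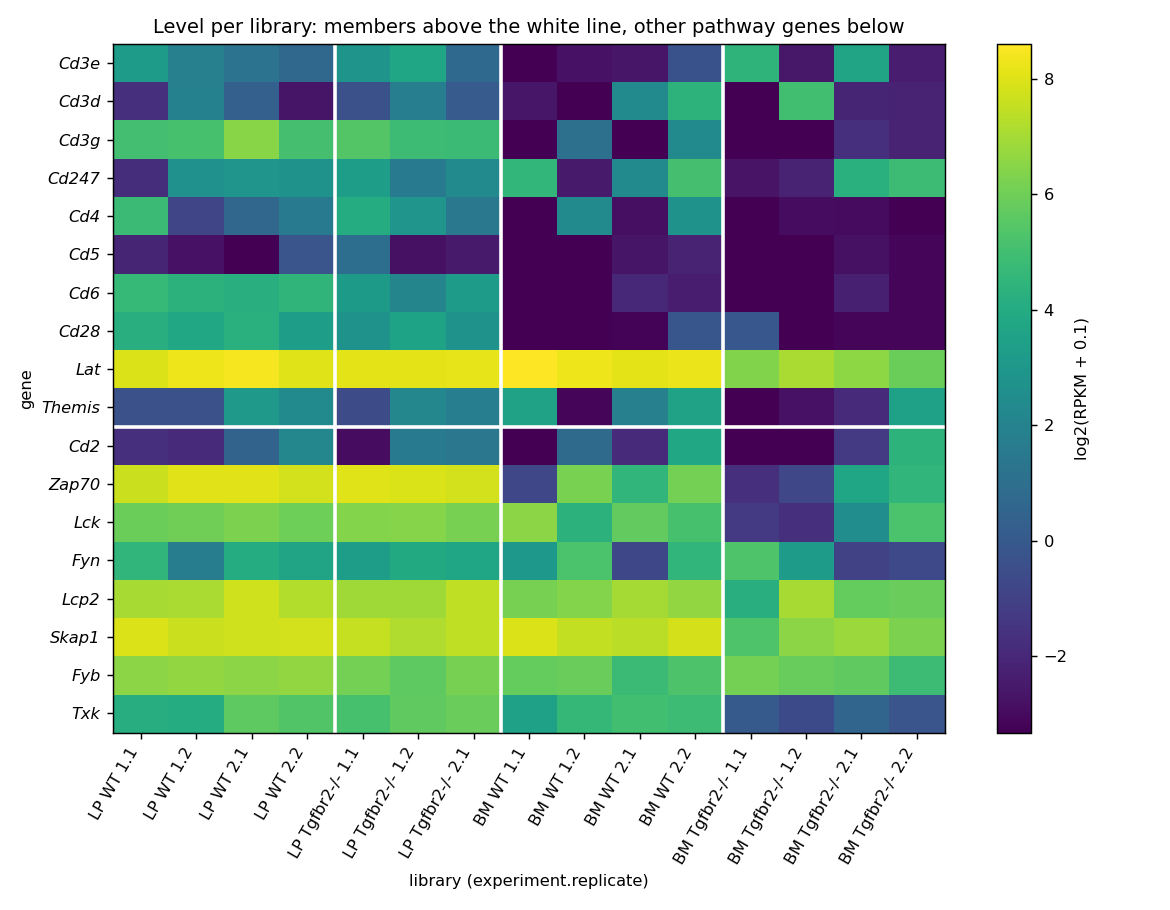
Level as log2(RPKM + 0.1) of the 10 members (above the horizontal white line) and 8 other pathway genes (below it) in each of the 15 libraries, grouped by cell type and genotype. Lat, Skap1 and Lcp2 are high in all LP libraries, Cd6 and Cd28 are near the bottom of the scale in BM libraries, and Cd3e, Cd3d and Cd247 change from library to library in BM ILC2p.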

How the data were processed

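Gene expression was measured by RNA-seq in 15 libraries. Alignment to mm9 was done by the authors in TopHat with up to 15 hits a read (the labels also name Bowtie2). RefSeq genes were counted with rpkmforgenes, and the authors deposited a read count and an RPKM for each gene. From the deposited counts, edgeR 4.0.16 (R 4.3.3) was run on all genes, with TMM scaling, filterByExpr (minimum count of 10), quasi-likelihood tests and Benjamini-Hochberg adjustment over all genes tested. Genotype was fitted with the experiment as a covariate in each cell type, and the cell types in 1 fit over 15 libraries. A gene was called at an adjusted p under 0.1 and a fold change over 1.5, as in the study. The deposited RPKM served for levels and, as log2(RPKM + 1) or log2(RPKM + 0.1), for limma 3.58.1. DESeq2 1.42.0 was an alternative. A single gene was also tested by exact permutation of the genotype within experiments on log2(CPM + 0.5).

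The 10 genes, the pathway list (30 genes) and the 8 marker lists were chosen with earlier results of these data known. All members were named, with Cd2, Zap70, Lck, Fyn and Lcp2 always, every pathway gene called in a comparison, and where none was called the 4 of highest mean RPKM. Ptprc, given only relative to the ILC2 markers, was named outside this rule. Of the pathway genes that the rule names, 1 is not reported here. Likeness to Cd3e was the Pearson r over libraries among genes that passed the filter and reached 10 CPM in at least 1 library. Positions are from GENCODE on NCBIM37 (the same assembly as mm9), and promoters from RefSeq on GRCm38.p6. No source says that libraries of a group came from separate animals, so p-values measure the spread between libraries. The alternatives of the cell type difference of the genotype effect, and the values relative to the ILC2 markers, were chosen after seeing the data. Intervals and floors cover counting error only. The fit was also run on simulated counts, whose outcome is not given here.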

Additional observations from a re-analysis of the deposited data

Results flagged for a closer look

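Among 30 groups of 4 libraries (10 genes in WT LP ILC2s, WT BM ILC2p and Tgfbr2-/- BM ILC2p), 8 held a library that lay far from the other 3 on the scale of log2(CPM + 0.5) with TMM scaling (Dixon's test at the 95% level); the values given are the RPKM of these libraries, on which the gaps differ. Chance flags about 1 in 20 groups where values follow a normal distribution. That does not hold for groups with most libraries near 0 reads, so the 8 are not read against this rate. Cd6 in Tgfbr2-/- BM ILC2p, for example, held 0, 0, 7 and 1 reads. In WT LP ILC2s this was Cd247 at 0.193 RPKM in experiment 1 replicate 1. In WT BM ILC2p, experiment 2 replicate 2 stood apart for Cd3e (0.708 RPKM) and Cd28 (0.825 RPKM), and experiment 1 replicate 1 for Lat (388 RPKM). In Tgfbr2-/- BM ILC2p these were Cd3d at 31.8 RPKM and Cd28 at 0.837 RPKM in experiment 1, replicates 2 and 1, and Cd6 at 0.106 RPKM and Themis at 11.4 RPKM in experiment 2, replicates 1 and 2. The 7 values of BM ILC2p come from the libraries in which 1.64% to 13.7% of expressed genes were missing, and the part of that in these values was not tested.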

How the results depend on the processing

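Where a result changed, the cause was not tested. No alternatives were run for the difference of the genotype effect between experiments. The call of Cd6 between the cell types was kept under all 23 alternatives that tested it. Cd6 passed the filter through the LP libraries, where it was high, so this is not read as support for the call. In LP ILC2s, Cd3g, Cd6, Cd28 and Lat kept their direction under all 19 alternatives. Lat in BM ILC2p kept its direction under all 22 alternatives and was counted as losing its call under 14. These include no filter on low counts (edgeR adjusted p = 0.191), experiment 1 or 2 alone (0.417 and 0.273) and the replicate block (0.239). The ratios to the ILC2 markers (-0.27, or -0.57 with 8 of them) are in both counts. They were not put to the call rule and are a description, so no call was kept or lost by them. The count of called genes for the genotype in LP ILC2s was 338 by DESeq2, 3 with no filter and 0 with any 1 library left out. In BM ILC2p it was 1229 by DESeq2, 203 with at least 10 counts in every library, 38 in experiment 1 alone, 77 in experiment 2 alone and 179 to 319 with 1 library left out. Its split of 241 higher and 80 lower became 220 and 112 with scaling by library size and 203 and 119 with the upper quartile, where the median of all genes moved from -0.10 to -0.31 and -0.40. Same-numbered libraries did not deviate together (correlations of -0.05 in LP experiment 1 and of -0.01 and -0.03 in BM experiments 1 and 2). These correlations cannot tell whether such libraries shared a mouse or a preparation, and the main fit had no replicate block. With the replicate block, 0 genes were called in LP ILC2s and 175 in BM ILC2p. Between the cell types the count was 1711 by DESeq2, 615 with no filter, 129 with at least 10 counts in every library, 188 at the stricter threshold, 684 by limma on log2(RPKM + 0.1) and 138 to 583 with 1 library left out. Between the LP experiments it was 24 with scaling by library size, 31 with the upper quartile, 1347 by DESeq2, 320 with no filter, 66 with at least 10 counts, 5 at the stricter threshold, 255 by limma on log2(RPKM + 0.1), 383 with no covariate and 0 to 19 with 1 library left out. For the difference of the genotype effect between the cell types it was 196 with scaling by library size (132 higher, 64 lower), 203 with the upper quartile (146 and 57), 1518 by DESeq2 and 14 to 407 with 1 library left out.

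Directions turned for members that were not called. In LP ILC2s the log2 fold change of Cd4 was 0.01 with the upper quartile, 0.64 and 1.04 by limma with pseudocounts of 1 and 0.1, 1.18 with the replicate block and 0.34 in experiment 2 alone, and that of Themis was -0.33 with no covariate. In experiment 2 alone it was -0.23 for Cd3e, -0.48 for Cd247 and -1.0 for Themis in LP ILC2s, with only 1 Tgfbr2-/- library. In BM ILC2p it was 0.63 for Cd247 and 0.03 for Themis in experiment 2 alone. Between the cell types, Lat was at 0.07 with the upper quartile and 0.01 with at least 10 counts. With 1 library left out, the LP values ran from -0.18 to 0.63 for Cd3e, -0.38 to 1.84 for Cd3d, -0.39 to 2.08 for Cd247, -0.58 to 2.42 for Cd4 and -0.69 to 1.84 for Themis. The BM values ran from -5.34 to 0.54 for Cd247 and -6.64 to 0.28 for Themis. Between the cell types they ran from -5.64 to 0.69 for Cd3d, -4.08 to 2.10 for Cd247, -0.76 to 3.01 for Cd4, -0.37 to 0.03 for Lat and -4.07 to 2.59 for Themis. Cd28 was called there without Tgfbr2-/- BM experiment 1 replicate 1 (9.19, adjusted p = 0.022) and without WT BM experiment 2 replicate 2 (11.42, adjusted p = 0.0531). It was tested there through the LP libraries, where it was high, so these calls are not read as support.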

Other observations

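Markers of other cell types were also measured. ILC3 markers summed to 17.9 to 405 RPKM in LP libraries, with Il22, a cytokine of ILC3s, the most abundant (1.81 to 357 RPKM), and to 0.0825 to 39.8 RPKM in BM libraries. ILC1 and NK cell markers summed to 456, 237, 261 and 320 RPKM in WT and 314, 524 and 1190 RPKM in Tgfbr2-/- LP libraries, with the granzyme Gzma the most abundant (136 to 1030 RPKM). In BM libraries they summed to 0.219, 15, 21.4 and 49.1 RPKM in WT and 76.8, 89.8, 70.6 and 244 RPKM in Tgfbr2-/- libraries, without overlap, and Gzma measured at most 0.252 RPKM in WT and 27.7 to 39.9 RPKM in Tgfbr2-/- libraries. B cell markers summed to 41.1 to 82.8 RPKM in LP libraries, with Pax5 at 0 in all 7, and to 0.66 to 116 RPKM in BM libraries, with Cd79b, a chain of the B cell receptor, the most abundant in both. Erythroid markers summed to 170 to 818 RPKM in LP and 120 to 600 RPKM in BM libraries, with the globin gene Hba-a1 the most abundant. Epithelial markers summed to 0.0834 to 25.1 RPKM in BM libraries, and myeloid markers to 0.056 to 110 RPKM in LP libraries, with Elane, Itgam and Mpo at 0 in all 7.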
